A study of Mus musculus with 10 samples.

Results

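The members of the neuropeptide system described here are 46 genes of the 54838 Ensembl genes counted in the libraries, chosen by gene symbol in the annotation of the mouse genome build GRCm38. They comprise 13 peptide precursors, 6 granins, 5 genes of precursor processing and 22 peptide receptors, and every symbol matched 1 gene. Translating ribosome affinity purification (TRAP) recovers mRNA bound to EGFP-tagged ribosomes. It was applied to dorsal and ventral hippocampus in order to compare populations enriched for hilar mossy cells (MCs) along this axis. MCs are the glutamatergic neurons of the dentate hilus. Each of the 5 Dorsal and 5 Ventral libraries came from tissue pooled from 5 mice, so a replicate is a pool. The hippocampi of 25 mice were each divided into a dorsal and a ventral part, so dorsal and ventral libraries share animals, although the sources used here do not say which pools do. All 10 libraries share the genotype MC-TRAP (Drd2-Cre;Eef1a1LSL.eGFPL10a/+) on a C57BL/6 strain, in male mice about 10 weeks old, and no treatment or other genotype entered the design. In this model a Drd2-Cre transgene releases a Cre-dependent EGFP-L10a allele. Besides MCs, the study describes the tag in scattered GABAergic interneurons of the CA areas and in neurons of the ventral subiculum. That region was dissected away to limit contamination, and the study allows that a little subicular tissue may have stayed in. The dorsal and ventral pieces were cut by proportion of hippocampal length. The ventral piece was the longer one and held all of the hippocampus beyond the dorsal piece, apart from the ventral subiculum.

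Neuropeptides are made as larger precursors, sorted into dense-core vesicles with the help of granins, cut by the prohormone convertases PCSK1 and PCSK2, trimmed by carboxypeptidase E and often amidated by PAM before release. They act mostly through G-protein-coupled receptors, at sites that can lie far from where they are released. In the dentate hilus, somatostatin, neuropeptide Y and cholecystokinin are classic products of GABAergic interneurons, while dynorphin and enkephalin precursors are known from granule cells and their mossy fibres. MCs themselves are known first as glutamatergic neurons, and most of the precursors below are also known as products of neighbouring cells.

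Several genes of the system are known to carry the cyclic-AMP response element (CRE), the 8 letters TGACGTCA bound by CREB-family factors, for which the somatostatin promoter is the textbook example. RefSeq promoter windows (GRCm38.p6, 250 bases before to 50 after each annotated start) matched 38 of the 46 members. The whole element lay in windows of 6 members, and those stretches are shown because they join 1 peptide called below (Sst) with 5 members that were not called, a peptide, both main granins by length-scaled level, a convertase and a somatostatin receptor. Each line gives 30 bases read 5′ to 3′ along the gene, with the element in capitals.
Sst: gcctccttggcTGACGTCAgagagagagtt
Cartpt: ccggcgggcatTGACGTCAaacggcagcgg
Scg2: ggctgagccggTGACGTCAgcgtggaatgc
Chgb: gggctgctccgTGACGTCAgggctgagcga
Pcsk1: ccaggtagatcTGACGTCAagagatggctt
Sstr2: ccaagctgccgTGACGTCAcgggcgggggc

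These stretches are Sst at chr16:23890874-23890903 on the minus strand (48 to 41 bases upstream), Cartpt at chr13:99900777-99900806 on the minus strand (112 to 105 bases upstream) and Scg2 at chr1:79440076-79440105 on the minus strand (68 to 61 bases upstream). The others are Chgb at chr2:132781559-132781588 on the plus strand (72 to 65 bases upstream), Pcsk1 at chr13:75089768-75089797 on the plus strand (78 to 71 bases upstream) and Sstr2 at chr11:113619258-113619287 on the plus strand (58 to 51 bases upstream), with distances counted from the RefSeq start. TGACGTCA, which reads the same on both strands, was found in 1.79% of all 32851 mouse promoter windows and in 12.8% of the 47 windows of the members. The shorter letters TGACG, searched on both strands and contained in TGACGTCA, were found in 44.7% of the members' windows, those of 21 of the 38 matched members, and in 20.8% of all windows. Among the called members with an entry, TGACG lay in the windows of Sst, Tac1, Nts, Gal, Ntsr1, Hcrtr2 and Avpr1a and not in those of Pdyn, Npy1r and Oprl1. A match describes these letters alone. No entry was found for Penk, Pnoc, Grp, Vgf, Cpe, Sstr1, Oprk1 and Galr1.

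Gene counts per library ranged from 11138676 to 20594364, at which 3 counts correspond to 0.146 to 0.269 CPM (counts scaled to library size), a floor that covers counting error only. Dorsal and ventral libraries differed in several properties besides the members. Read pairs on no annotated gene made up 27.0 ± 5.09% (SD, n = 5) in dorsal and 14.4 ± 2.997% (SD, n = 5) in ventral libraries (2-sided exact permutation test, p = 0.00794, the smallest that 5 against 5 allows). MC markers summed to 1859 to 2127 CPM in dorsal and 1904 to 2212 CPM in ventral libraries, of which Gria2 alone averaged 1143 and 651 CPM. Drd2 averaged 28.1 and 20.7 CPM and Calcrl 7.52 and 8.25 CPM. Csf2rb2, with 0 counts in dorsal library 1, did not pass the filter used below. Of the 7 tested of these 8 markers, Gria2 and Gria3 were dorsal-enriched and Calb2 and Satb1 ventral-enriched, with Calb2, the ventral MC marker, at 65.2 and 616 CPM. Choroid plexus markers summed to 126 to 991 and 189 to 429.6 CPM, with 2 of 4 dorsal-enriched (Kl and Clic6). The mRNAs of the mitochondrial genome took 2968 ± 315 CPM (SD, n = 5) in dorsal and 790.2 ± 307 CPM (SD, n = 5) in ventral libraries (2-sided exact permutation test, p = 0.00794). The part of these library differences in the results below was not tested.

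Of the 46 members, 43 passed the filter of more than 1 CPM in at least 2 libraries. Enrichment was called at an adjusted p below 0.05 with an absolute log2 fold change above 0.58, dorsal over ventral, in edgeR's quasi-likelihood test over all 16806 tested genes. By this rule 4 members were dorsal-enriched, namely the peptide precursors Penk, Pdyn and Nts and the vasopressin receptor Avpr1a, and 7 were ventral-enriched, namely the precursors Sst, Tac1 and Gal and the receptors Npy1r, Oprl1, Ntsr1 and Hcrtr2. These 11 of 43 stand beside 26.2% of all tested genes called, 15.9% as dorsal-enriched and 10.2% as ventral-enriched. A further 2 members, Npy and Cck, passed the adjusted p without the fold threshold, which 33.6% of all genes passed. The 5 dorsal and 5 ventral values did not overlap for 9 members, 3 higher in dorsal and 6 higher in ventral libraries, against 18.2% of all tested genes. By role, edgeR called 6 of 13 peptides, 5 of 19 receptors, 0 of 6 granins and 0 of 5 processing genes, beside 26.2% of all tested genes. DESeq2 also called 0 of the granins and processing genes, of which 0 and 2 had an unadjusted edgeR p below 0.05. These sets are small, and a difference between roles was not tested. The median log2 fold change of the members was -0.068, against -0.0044 over all tested genes.

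Among the 24 tested members with at least 10 CPM in either group 5 were called, and among the 19 under that level 6 were called, so 6 of the 11 calls rest on genes below 10 CPM. Single libraries decided several of the 11 calls, as described for each gene below. Without dorsal library 4, 5 or ventral library 4, the number of ventral-enriched members went from 7 to 3, 4 and 4, and without ventral library 5 the number of dorsal-enriched members went from 4 to 2. Correcting for GC content and for the exonic length of genes gave 5 dorsal-enriched and 4 ventral-enriched members, beside 16.9% and 9.99% of all tested genes. Tac1, Nts, Gal and Avpr1a kept their call under every alternative setting and without any 1 library, except that Gal was not tested under the stricter expression filter. P-values measure the spread between pools. In the GRCm38 annotation the dorsal-enriched members lie at chr4:4133531-4138819 (Penk, minus strand), chr2:129686565-129699844 (Pdyn, minus strand), chr10:102481756-102490486 (Nts, minus strand) and chr10:122448499-122453452 (Avpr1a, plus strand). The ventral-enriched members lie at chr16:23889573-23890958 (Sst, minus strand), chr6:7554879-7565834 (Tac1, plus strand), chr19:3409915-3414544 (Gal, minus strand), chr8:66697192-66706792 (Npy1r, plus strand), chr2:181715016-181720985 (Oprl1, plus strand), chr2:180499976-180544980 (Ntsr1, plus strand) and chr9:76225880-76323856 (Hcrtr2, minus strand).

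**Figure D1:**
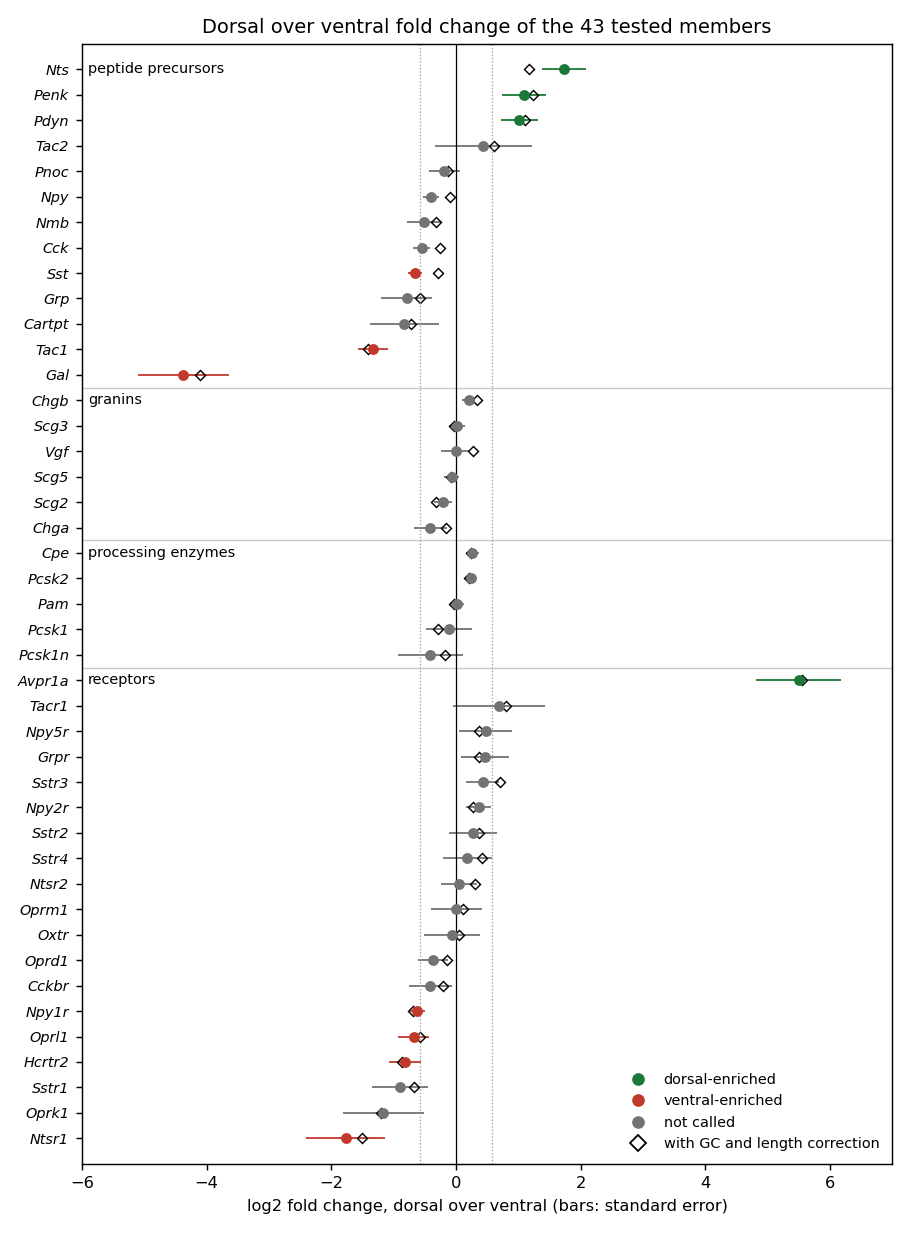
Log2 fold change, dorsal over ventral, of the 43 tested members grouped by role, with standard errors as bars, calls in colour, the fold threshold of 0.58 as dotted lines and the GC- and length-corrected value as an open diamond. The granins and processing genes lie between -0.42 and 0.26, while Avpr1a (5.50) and Gal (-4.37) lie farthest out, and Sst moves from -0.66 to -0.28 with the correction.

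Somatostatin, neuropeptide Y and cholecystokinin were the abundant precursors, and each was at a higher mean level in ventral libraries. Scaled to exonic length, Sst ranked 22, Cck 171 and Npy 178 among 16800 tested genes, with mean levels of 629 and 992 CPM per kb for Sst in dorsal and ventral libraries. Sst, which encodes an inhibitory peptide of dendrite-targeting hilar interneurons, was at 444, 438, 454, 452 and 480.2 CPM in dorsal libraries 1 to 5 and at 926, 753, 587, 682 and 629.6 CPM in ventral libraries 1 to 5. The dorsal values lay close together, ventral library 1 was the highest, and the groups did not overlap. Sst was ventral-enriched (log2 fold change -0.66 ± 0.11 SE, edgeR adjusted p = 0.000986). With GC content and length taken into account the difference was smaller and not called (log2 fold change -0.28, adjusted p = 0.152), and without ventral library 1 it fell short of the fold threshold (log2 fold change -0.55, edgeR adjusted p = 0.00134). In libraries of bulk precipitates, fewer cells of a type and less RNA per cell cannot be told apart.

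Cck, the precursor of cholecystokinin and a marker of basket cells as well as of pyramidal neurons, was at 126, 169, 222, 185 and 193 CPM in the dorsal and 273, 233, 247, 309 and 251 CPM in the ventral libraries. Every ventral library lay above every dorsal one, with dorsal library 1 the lowest. The difference passed the adjusted p but not the fold threshold (log2 fold change -0.55 ± 0.14 SE, edgeR adjusted p = 0.00755). It crossed that threshold without dorsal library 3 (log2 fold change -0.63, edgeR adjusted p = 0.0044) or ventral library 2 (log2 fold change -0.59, edgeR adjusted p = 0.00808). Npy, the precursor of neuropeptide Y, which dampens glutamate release in the hilus, was at 70.4, 82.6, 92.5, 78.1 and 80.5 CPM in the dorsal and 116, 116, 74.6, 111 and 116 CPM in the ventral libraries. Ventral library 3 fell among the dorsal values while the other ventral libraries lay above them all. For Npy the log2 fold change was -0.40 with a standard error of 0.13, under the fold threshold (edgeR adjusted p = 0.0311), and -0.093 after the GC and length correction (adjusted p = 0.626). Markers of GABAergic interneurons other than peptides summed to 3296 to 4478 CPM in the dorsal and 3786 to 5078 CPM in the ventral libraries. Of these 14 markers 1 was dorsal-enriched (Dlx6) and 3 were ventral-enriched (Pvalb, Lhx6 and Htr3a), and none was at 0 in every library. Their part in the Sst, Cck and Npy values was not tested.

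The opioid precursors Penk and Pdyn and the neurotensin precursor Nts were dorsal-enriched. Penk, the source of enkephalins, was at 17.9, 10.5, 51.04, 38.4 and 43.3 CPM in the dorsal and 18.5, 17.2, 10.2, 18.7 and 11.7 CPM in the ventral libraries. Dorsal libraries 3, 4 and 5 stood above every ventral library, whereas dorsal libraries 1 and 2 lay inside the ventral range. The call (log2 fold change 1.09 ± 0.35 SE, edgeR adjusted p = 0.0294) was lost when any of 5 libraries was left out, with an adjusted p of 0.0807, 0.0697 and 0.0713 without dorsal library 3, 4 or 5 and of 0.0578 and 0.0767 without ventral library 3 or 5. The log2 fold change without 1 of those libraries ranged from 0.86 (without dorsal 3) to 1.02 (without dorsal 4). Another gene, A830012C17Rik, covers 14.3% of the exonic bases of Penk, and reads there cannot be assigned without the strand setting. Pdyn, the source of dynorphins in granule cells, was at 10.1, 11.1, 11.9, 10.9 and 9.59 CPM in dorsal libraries. In ventral libraries Pdyn was at 7.10, 10.2, 2.53, 2.78 and 4.53 CPM. Ventral library 2 lay within the narrow dorsal range and the other ventral values lay below it. Pdyn was called (log2 fold change 1.02 ± 0.30 SE, edgeR adjusted p = 0.0188), and the call was lost without ventral library 4 (log2 fold change 0.86, adjusted p = 0.0503) or 5 (log2 fold change 0.95, adjusted p = 0.0521). Granule cell markers summed to 402 to 461 CPM in the dorsal and 211 to 392.2 CPM in the ventral libraries. Of these 8 markers 2 were dorsal-enriched (Prox1 and Lct), 0 were ventral-enriched and none was at 0 throughout. The part of granule cell RNA in the Penk and Pdyn values was not tested.

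Nts encodes neurotensin and neuromedin N. It was at 6.21, 2.66, 4.63, 4.02 and 5.26 CPM in the dorsal and 1.28, 1.14, 0.760, 1.27 and 1.84 CPM in the ventral libraries, so that every dorsal value lay above every ventral one. The difference was 1.73 on the log2 scale (SE 0.35, edgeR adjusted p = 0.00255), a ratio of mean CPM of 3.63, and 1.17 after the GC and length correction (adjusted p = 0.0215). Markers of the subiculum, where Nts is also known, summed to 20.04 to 35.1 CPM in the dorsal and 37.2 to 48.4 CPM in the ventral libraries. Of the 4 tested of these 6 markers, Gpc3 was dorsal-enriched (5.17 and 1.87 CPM) and Slc17a6 ventral-enriched (11.5 and 29.8 CPM), the median log2 fold change was 0.41, and their part in the Nts values was not tested.

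Tac1 and Gal were ventral-enriched. Tac1, the precursor of substance P and neurokinin A, was at 4.89, 2.27, 4.36, 3.84 and 3.69 CPM in the dorsal and 9.82, 7.04, 9.03, 11.01 and 9.63 CPM in the ventral libraries. The groups did not overlap, and dorsal library 2 was the lowest. Tac1 differed by -1.33 on the log2 scale (SE 0.24, edgeR adjusted p = 0.00139), and by -1.41 with GC content and length taken into account (adjusted p = 0.000599). Gal, the precursor of galanin, an inhibitory peptide, was close to the counting floor in dorsal libraries. Its counts were 0, 2, 5, 1 and 2 in dorsal libraries 1 to 5 and 97, 11, 14, 65 and 59 in ventral libraries 1 to 5. In CPM these are 0, 0.130, 0.341, 0.0601 and 0.157 in dorsal and 5.38, 0.968, 1.18, 4.11 and 2.79 in ventral libraries, without overlap. Ventral libraries 1, 4 and 5 were well above ventral libraries 2 and 3. The fitted log2 fold change was -4.37 (SE 0.73, edgeR adjusted p = 0.000437). Leaving out 1 library at a time gave -4.98 to -4.03, with -4.98 without dorsal library 3, which holds 5 of the 10 dorsal counts. The value closest to no difference over all alternatives was -1.77, from the log2 ratio of mean CPM plus 1. The added 1 CPM by itself shrinks the fold of a gene this low.

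The remaining precursors were not called. Pnoc, which encodes nociceptin, was at 8.75, 11.4, 11.5, 10.3 and 10.2 CPM in the dorsal and 15.3, 16.9, 5.74, 12.7 and 9.44 CPM in the ventral libraries, with overlapping groups (95% interval of the log2 fold change -0.72 to 0.34, edgeR adjusted p = 0.584). Nmb, which encodes neuromedin B and shares 20.6% of its exonic bases with Sec11a, was at 8.19, 3.83, 7.70, 8.29 and 9.43 CPM in the dorsal and 13.8, 6.25, 7.43, 10.8 and 12.5 CPM in the ventral libraries. The Nmb groups overlapped as well, and the 95% interval was -1.10 to 0.067 (edgeR adjusted p = 0.157). Cartpt, known as a marker of MCs in some species, averaged 1.84 ± 1.38 CPM (SD, n = 5) in the dorsal and 3.09 ± 2.29 CPM (SD, n = 5) in ventral libraries. Its libraries spread from 0.0941 to 3.88 and from 0.704 to 6.33 CPM, and the interval of -2.02 to 0.36 leaves both directions possible. Grp, the precursor of gastrin-releasing peptide, averaged 1.18 and 2.14 CPM (edgeR adjusted p = 0.146). Tac2, the neurokinin B precursor, averaged 0.670 and 0.5795 CPM, where 1 library of each group held most of the signal (edgeR adjusted p = 0.687).

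**Figure D2:**
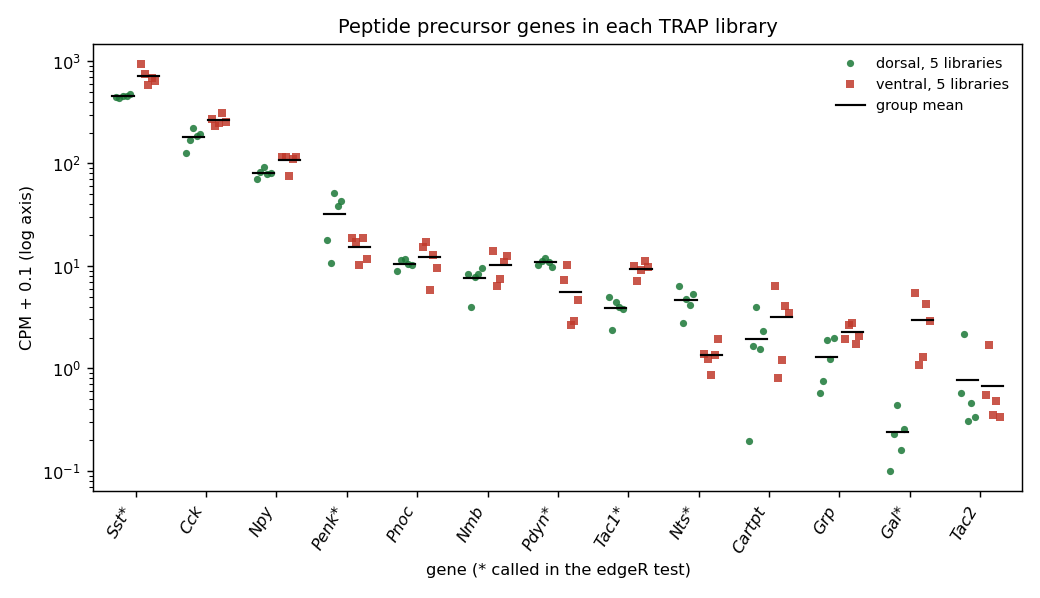
CPM plus 0.1 on a log axis for the 13 peptide precursor genes in each of the 5 dorsal (circles) and 5 ventral (squares) libraries, with group means as lines and asterisks for calls, ordered by mean CPM. Sst, Cck, Tac1, Nts and Gal have groups that do not overlap, and the dorsal values of Penk fall into 3 higher and 2 lower libraries.

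Granins, the acidic proteins that condense peptide cargo in dense-core vesicles, were not called, although several are abundant genes here. Their summed level ranged from 771 to 866 CPM in dorsal and from 718 to 940.4 CPM in ventral libraries, and the median log2 fold change of the 6 genes was -0.035. Chgb (chromogranin B), the granin with the highest level per exonic length (181 and 157 CPM per kb), was at 479.8, 488, 469, 517 and 528 CPM in the dorsal and 538, 386, 423, 406 and 401 CPM in the ventral libraries. Ventral library 1 lay above all dorsal libraries and the other 4 ventral libraries below them. The log2 fold change of Chgb was 0.20 (95% interval -0.011 to 0.42, edgeR adjusted p = 0.13) and 0.33 with GC content and length taken into account (adjusted p = 0.0293), under the fold threshold both times. Scg2 (secretogranin II), the precursor of secretoneurin, was at 168, 116, 136, 161 and 145 CPM in the dorsal and 191, 216, 131, 158 and 145 CPM in the ventral libraries, with an interval of -0.52 to 0.10. Scg5, which encodes the PCSK2 chaperone 7B2, was at 89.9, 79.9, 87.8, 91.8 and 96.02 CPM in the dorsal and 103, 114, 88.1, 84.5 and 77.7 CPM in the ventral libraries, with an interval of -0.32 to 0.19. Scg3, a granin that binds cholesterol-rich vesicle membrane, was at 80.7, 51.3, 68.5, 62.5 and 63.3 CPM in the dorsal and 67.7, 68.1, 56.7, 61.4 and 65.1 CPM in the ventral libraries, with an interval of -0.25 to 0.29. For each of these 3 genes the groups overlapped and the interval of the log2 fold change stayed within 1 in either direction, the smallest adjusted p being 0.276 for Scg2 in edgeR. Chga (chromogranin A) was at 10.3, 20.5, 18.3, 15.1 and 16.1 CPM in the dorsal and 24.6, 35.3, 12.2, 23.7 and 14.7 CPM in the ventral libraries, with ventral library 2 the highest and a wider interval of -0.98 to 0.15 (edgeR adjusted p = 0.24). Vgf, a neurotrophin-responsive granin whose fragments act as peptides, was at 8.09, 15.3, 19.1, 18.1 and 17.6 CPM in the dorsal and 16.5, 15.4, 10.4, 21.6 and 15.2 CPM in the ventral libraries, with an interval of -0.49 to 0.48 (edgeR adjusted p = 0.988). Both of these also had overlapping groups.

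None of the 5 genes of precursor processing was called. DESeq2 gave adjusted p-values of 0.0228 for Cpe and 0.0205 for Pcsk2, with log2 fold changes of 0.29 and 0.26 under the fold threshold. The summed level of all 5 ranged from 1029 to 1285 CPM in dorsal and from 886 to 1123 CPM in ventral libraries. Cpe, which encodes carboxypeptidase E and ranked 66 of 16800 genes by level per length, was at 955, 1001, 767, 969 and 877 CPM in the dorsal and 834, 851, 753, 707 and 663 CPM in the ventral libraries. The ventral values reached from below the lowest dorsal library into the dorsal range, and the log2 fold change was 0.26 (95% interval 0.051 to 0.48, edgeR adjusted p = 0.0537). Pcsk2, the convertase that completes many neuropeptides, was at 122, 121, 109, 111 and 113 CPM in the dorsal and 107, 103, 94.6, 98.7 and 85.9 CPM in the ventral libraries. All dorsal libraries lay above all ventral ones, by a small margin (0.24 on the log2 scale, 95% interval 0.026 to 0.45, edgeR adjusted p = 0.0762). Pam, the amidating enzyme, was at 129, 94.7, 102, 113 and 112 CPM in the dorsal and 127, 103, 105, 102 and 104 CPM in the ventral libraries, overlapping, with an interval of -0.22 to 0.26. Pcsk1, the other neuronal convertase, spread much more among libraries of the same group, at 30.95, 6.89, 13.2, 27.1 and 16.9 CPM in the dorsal and 33.5, 11.5, 11.6, 23.98 and 16.996 CPM in the ventral libraries. In Pcsk1 libraries 1 and 4 were the highest of both groups, and the interval was -0.89 to 0.67 (edgeR adjusted p = 0.839). Pcsk1n, which encodes proSAAS, an inhibitor of PCSK1, was at 2.73, 61.1, 38.2, 17.1 and 23.2 CPM in the dorsal and 22.8, 27.9, 48.3, 83.2 and 15.8 CPM in the ventral libraries. Dorsal library 1 was far below every other library for Pcsk1n, and the interval of -1.52 to 0.70 is too wide to bound a difference below 1 on the log2 scale (edgeR adjusted p = 0.568).

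**Figure D3:**
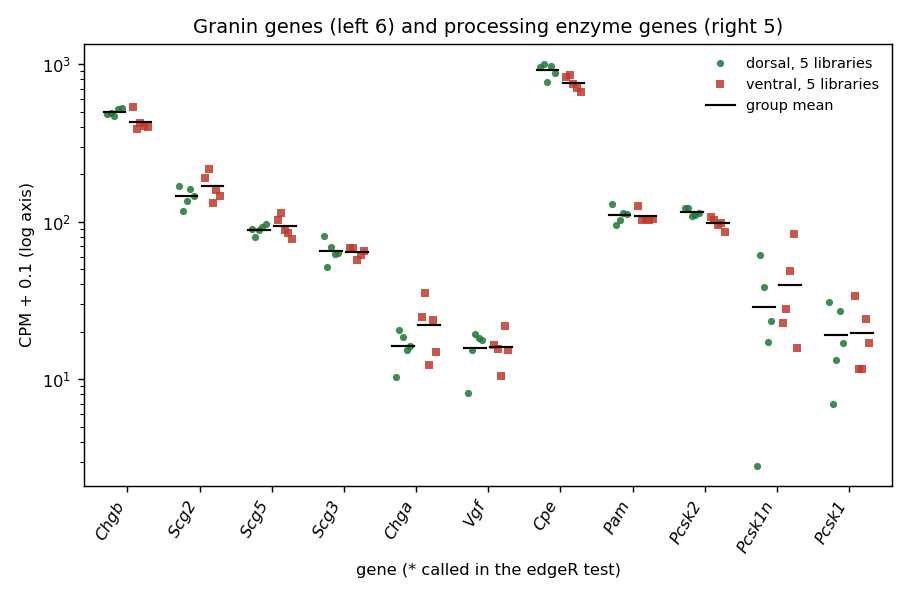
CPM plus 0.1 on a log axis for 6 granin genes and 5 genes of precursor processing in each dorsal (circles) and ventral (squares) library, with group means as lines. No gene is called, Pcsk2 alone has groups that do not overlap, and the widest spread among libraries is that of Pcsk1n, from 2.73 to 61.1 CPM in dorsal libraries.

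The 22 peptide receptor genes summed to 139 to 169 CPM in dorsal and 156 to 178 CPM in ventral libraries. Of the 19 tested, 1 was dorsal-enriched and 4 were ventral-enriched. Avpr1a, which encodes the V1a vasopressin receptor, had the largest fitted log2 fold change of the 43 tested members. Its counts were 35, 84, 133, 87 and 93 in dorsal libraries 1 to 5 and 0, 7, 3, 0 and 0 in ventral libraries 1 to 5, or 3.29, 5.46, 9.06, 5.23 and 7.31 CPM against 0, 0.616, 0.253, 0 and 0 CPM. Ventral libraries 1, 4 and 5 held no count and every dorsal library lay above every ventral one. The ratio of mean CPM was 34.9 from 432 dorsal and 10 ventral counts, and the fitted log2 fold change was 5.50 (SE 0.68, edgeR adjusted p = 4.09e-05). Leaving out 1 library at a time gave values from 5.07 to 6.86, the largest without ventral library 2, which holds 7 of the ventral counts. The smallest value over all alternatives was 2.59, from the log2 ratio of mean CPM plus 1, where the added 1 CPM by itself shrinks the fold. Counts of Avp, which encodes the vasopressin precursor, and of Oxt, the oxytocin precursor, did not pass the filter, with 4 and 0 counts of Avp in all dorsal and all ventral libraries. The related receptor Oxtr, which binds oxytocin and is known from hilar and CA2 neurons, averaged 7.22 ± 6.45 CPM (SD, n = 5) in the dorsal and 7.83 ± 2.98 CPM (SD, n = 5) in ventral libraries (edgeR adjusted p = 0.922). Dorsal library 2 held 18.6 CPM of Oxtr, above all others, and without it Oxtr met the ventral-enriched thresholds (log2 fold change -0.86, edgeR adjusted p = 0.0496).

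The neuropeptide Y receptors differed in their values. Npy1r, which encodes the postsynaptic Y1 receptor, was at 28.2, 26.7, 25.7, 22.9 and 26.2 CPM in the dorsal and 36.3, 39.97, 42.9, 37.4 and 42.5 CPM in the ventral libraries. Every ventral library lay above every dorsal library, and the gene was ventral-enriched (log2 fold change -0.62 ± 0.12 SE, edgeR adjusted p = 0.00219). Without dorsal library 4 the log2 fold change was -0.57, just inside the fold threshold (edgeR adjusted p = 0.0106). Npy2r, which encodes the Y2 receptor of nerve terminals, was at 40.2, 22.6, 28.6, 35.1 and 34.3 CPM in the dorsal and 21.97, 19.7, 38.6, 22.96 and 22.1 CPM in the ventral libraries. Ventral library 3 lay near the top of the dorsal range and the other ventral libraries near or below its lower end, with a log2 fold change of 0.36 (95% interval -0.067 to 0.80, edgeR adjusted p = 0.176). Npy5r averaged 5.98 and 4.12 CPM with overlapping groups (edgeR adjusted p = 0.406). The difference between the Y1 and Y2 changes was not tested.

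Of the 4 somatostatin receptors edgeR called 0, beside 26.2% of all tested genes, with 0 at an unadjusted p below 0.05, and DESeq2 called 0. Sstr3, the receptor of neuronal primary cilia, was at 7.62, 19.04, 16.8, 11.4 and 14.5 CPM in the dorsal and 9.21, 5.37, 13.8, 12.02 and 11.5 CPM in the ventral libraries, with ventral library 2 the lowest and overlapping groups (log2 fold change 0.43, edgeR adjusted p = 0.219). With GC content and length taken into account it met the dorsal-enriched thresholds (log2 fold change 0.71, adjusted p = 0.0363). Sstr1 averaged 0.823 and 1.65 CPM, Sstr2 2.90 and 2.36 CPM, and Sstr4 4.03 and 3.72 CPM in dorsal and ventral libraries. Their edgeR adjusted p were 0.132, 0.614 and 0.75, and their intervals of -1.85 to 0.053, -0.55 to 1.10 and -0.66 to 1.03 all reach beyond 0.58 on at least 1 side. Cckbr, the brain cholecystokinin receptor, averaged 2.77 and 3.58 CPM (edgeR adjusted p = 0.386).

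Of the opioid family, the nociceptin receptor Oprl1 was called. It was at 12.7, 6.76, 14.1, 11.5 and 11.4 CPM in the dorsal and 12.3, 12.2, 25.9, 19.9 and 19.5 CPM in the ventral libraries. Ventral libraries 3, 4 and 5 stood above every dorsal library, and ventral libraries 1 and 2 did not. The call was narrow (log2 fold change -0.68 ± 0.25 SE, edgeR adjusted p = 0.048) and held in 8 of 24 alternatives. It was lost without any 1 of dorsal libraries 1, 2, 4 and 5 (adjusted p = 0.0545, 0.101, 0.0901 and 0.0948 in edgeR) or of ventral libraries 3, 4 and 5 (adjusted p = 0.098, 0.109 and 0.112 in edgeR). The delta receptor Oprd1 was at 10.2, 5.26, 7.70, 9.43 and 8.09 CPM in the dorsal and 11.9, 14.7, 7.77, 7.91 and 10.01 CPM in the ventral libraries, with overlapping groups and an interval of -0.88 to 0.15 (edgeR adjusted p = 0.254). The mu receptor Oprm1 averaged 5.16 ± 3.47 and 5.37 ± 2.05 CPM (SD, n = 5 each; edgeR adjusted p = 0.996). The kappa receptor Oprk1, the receptor of dynorphins, ranged from 0.0650 to 3.61 CPM in dorsal and from 0.422 to 8.43 CPM in ventral libraries, with an interval of -2.56 to 0.23 (edgeR adjusted p = 0.181). Of the 3 classical opioid receptors edgeR called 0, beside 26.2% of all tested genes, and 0 had an unadjusted p below 0.05. DESeq2 called 0 as well. The 95% interval of the log2 fold change of Oprm1 was -0.86 to 0.87, so differences of that size remain possible. A contrast of these receptors with the precursors Penk and Pdyn was not tested.

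Ntsr1, the high-affinity neurotensin receptor, was called on the side opposite to Nts. Its values were 0, 0.0650, 2.66, 1.14 and 1.57 CPM in the dorsal and 7.05, 0.968, 1.18, 4.68 and 3.78 CPM in the ventral libraries. Dorsal libraries 1 and 2 and ventral libraries 2 and 3 were the low ones of their groups, and the groups overlapped. The call (log2 fold change -1.77 ± 0.64 SE, edgeR adjusted p = 0.045) held in 11 of 24 alternatives. Leaving out 1 library ended it 7 times, with edgeR adjusted p = 0.0789, 0.0933, 0.0893 and 0.072 without dorsal library 1, 2, 4 or 5 and 0.124, 0.0877 and 0.0783 without ventral library 1, 4 or 5. Leaving out 1 library at a time gave log2 fold changes from -2.40 (without dorsal library 3) to -1.38. Ntsr2, the low-affinity receptor also known from astrocytes, was at 7.34, 23.5, 14.04, 11.4 and 11.6 CPM in the dorsal and 9.21, 9.33, 17.1, 14.8 and 16.3 CPM in the ventral libraries, with dorsal library 2 the highest and overlapping groups (edgeR adjusted p = 0.911). Astrocyte markers summed to 278 to 362 CPM in the dorsal and 241 to 393 CPM in the ventral libraries, and of these 6 markers 3 were dorsal-enriched (Aqp4, Gfap and Slc1a3) and 1 was ventral-enriched (Aldh1l1). Their part in the Ntsr2 values was not tested.

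Hcrtr2, the type 2 receptor for orexins, which come from the lateral hypothalamus, was ventral-enriched. Its values were 2.26, 5.13, 5.66, 4.08 and 4.16 CPM in the dorsal and 7.10, 6.78, 10.9, 7.21 and 7.08 CPM in the ventral libraries. The groups did not overlap, with dorsal library 1 the lowest and ventral library 3 the highest. Its log2 fold change was -0.81 (SE 0.26, edgeR adjusted p = 0.0273), and the adjusted p was 0.0693, 0.0671 and 0.0525 without dorsal library 4 or 5 or ventral library 4. Hcrtr1, with means of 0.499 and 0.474 CPM, did not pass the filter. Nor did the galanin receptor Galr1 (0.469 and 0.150 CPM) and the neurokinin B receptor Tacr3 (0.179 and 0.586 CPM), so these 3 genes were not tested. Tacr1, the substance P receptor, averaged 1.02 and 0.725 CPM (edgeR adjusted p = 0.489), and Grpr, the receptor of gastrin-releasing peptide, 2.59 and 1.88 CPM (edgeR adjusted p = 0.364). Over all roles, 32 tested members were not called, of which 18 had a 95% interval of the log2 fold change within 1 in either direction and 14 reached beyond it.

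**Figure D4:**
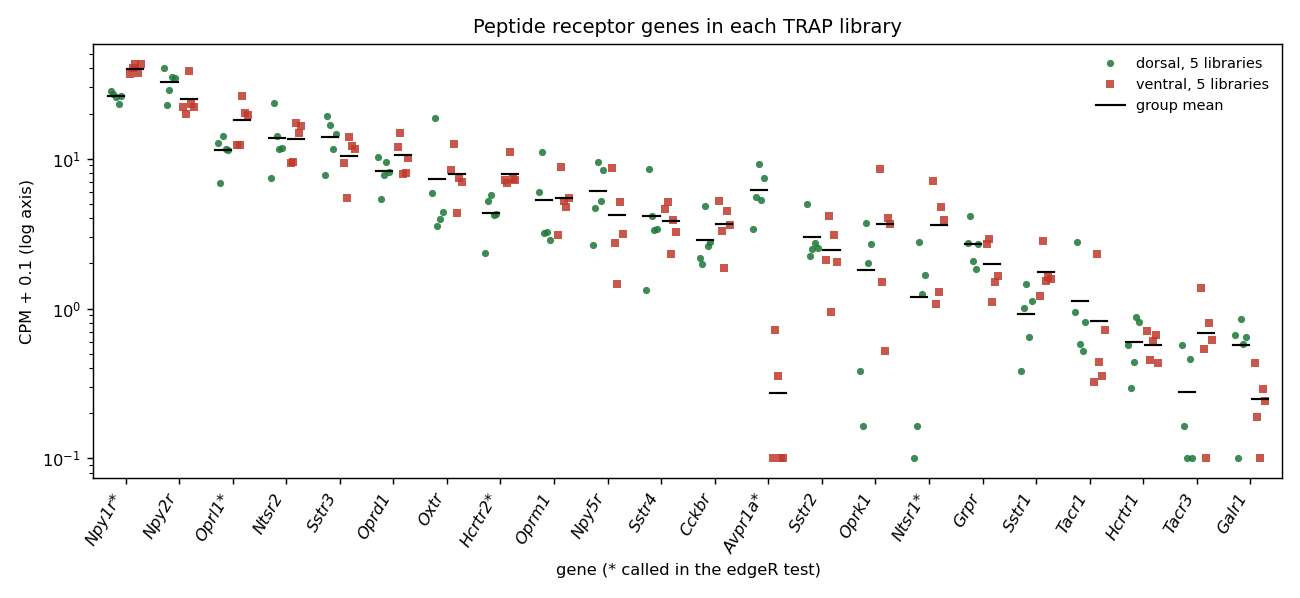
CPM plus 0.1 on a log axis for the 22 peptide receptor genes in each dorsal (circles) and ventral (squares) library, with group means as lines and asterisks for calls. Avpr1a separates the groups most widely (3.29 to 9.06 CPM in dorsal, 0 to 0.616 CPM in ventral libraries), and Npy1r and Hcrtr2 are higher in every ventral library.

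Some members varied more between libraries of the same group than between the groups. Replicate 2 was the highest library in both groups for 8 members, namely Tac2, Chga, Cpe, Sstr4, Oprm1, Tacr1, Oxtr and Grpr. For Oprm1 these libraries held 10.9 CPM (dorsal) and 8.63 CPM (ventral), and for Tacr1 2.66 and 2.20 CPM. Replicates 4 and 5 were the highest in both groups for 0 members, replicate 1 for 4 (Pcsk1, Pcsk2, Pam and Tacr3) and replicate 3 for 2 (Oprl1 and Hcrtr2). Gal, Cartpt, Oprk1 and Ntsr1 shared another order of libraries, with ventral libraries 1, 4 and 5 above ventral libraries 2 and 3 (in Cartpt 6.33, 0.704, 1.10, 3.99 and 3.35 CPM, in Oprk1 8.43, 1.41, 0.422, 3.92 and 3.54 CPM). In dorsal libraries Cartpt (0.0941, 1.56, 3.88, 1.44 and 2.20 CPM) and Oprk1 (0.282, 0.0650, 3.61, 1.92 and 2.59 CPM) were both highest in library 3 and next highest in library 5. These genes were picked out after their values were seen, and no test was made of the pattern.

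Other genes of peptide signalling were read from the same fit. Of 44 other precursors, 13 passed the filter, 1 was dorsal-enriched and 5 were ventral-enriched. The dorsal-enriched one was Crh, the corticotropin-releasing hormone gene, at 4.25 CPM in the dorsal and 1.38 CPM in the ventral libraries (log2 fold change 1.83, edgeR adjusted p = 0.0304). The 3 ventral-enriched ones with the largest fold were Prok2, the prokineticin 2 gene, with 4 and 158 counts in all dorsal and all ventral libraries, Rln1, a relaxin gene, with 26 and 177 counts, and Calca, the gene of calcitonin and CGRP, with 31 and 176 counts (edgeR adjusted p = 0.00449, 0.0262 and 0.00234). All 3 were near the counting floor in dorsal libraries. Ventral library 1 held 107 of the Rln1 counts. Ventral library 3 held 0 counts of Rln1 and of Prok2, so the groups overlapped for both genes, whereas those of Calca did not. Of 57 other receptors and receptor partners, 30 passed the filter, 7 were dorsal-enriched and 5 were ventral-enriched. On the dorsal side the largest were Cckar, the alimentary cholecystokinin receptor, with 64 and 2 counts in all dorsal and all ventral libraries, Agtr1a, an angiotensin receptor, with 96 and 15 counts, and Prokr2, a prokineticin receptor, at 8.80 and 1.46 CPM (log2 fold change 2.45, edgeR adjusted p = 0.000388). For Cckar and Agtr1a the edgeR adjusted p were 0.0128 and 0.0205. The ventral side was led by Qrfpr (2 and 115 counts), Npsr1, the neuropeptide S receptor (6 and 73 counts), and Ghsr, the ghrelin receptor (16 and 137 counts), with edgeR adjusted p = 0.0107, 0.024 and 0.0131. In ventral libraries 1 to 5 Qrfpr had 56, 4, 4, 27 and 24 counts. Npsr1 had 14, 1, 18, 4 and 36 counts there, and Ghsr 4, 4, 41, 25 and 63. The groups overlapped for Npsr1 and Ghsr but not for Qrfpr. Prok2 and its receptor Prokr2 lay on opposite sides of the comparison. None of the calls of these other genes was followed with single libraries left out.

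Among 22 tested of 27 other processing and degrading enzymes, 3 were dorsal-enriched and 1 was ventral-enriched. These were Furin (15.04 and 7.69 CPM, log2 fold change 0.996, edgeR adjusted p = 0.00131), the convertase of the constitutive secretory route, Pcsk7 (5.55 and 3.04 CPM, log2 fold change 0.98, edgeR adjusted p = 0.034), a related convertase, Qpctl (12.99 and 7.14 CPM, log2 fold change 0.90, edgeR adjusted p = 0.00548), a glutaminyl cyclase, and, in the ventral direction, Prep (10.2 and 18.5 CPM, log2 fold change -0.87, edgeR adjusted p = 0.00348), a prolyl endopeptidase. Of 22 tested genes of dense-core vesicle assembly and release (23 listed), 2 were dorsal-enriched and 3 were ventral-enriched. The dorsal-enriched ones were Syt7 (431 and 214 CPM, log2 fold change 1.01, edgeR adjusted p = 0.000186), a calcium sensor of slow exocytosis, and Slc18a2 (16.6 and 8.36 CPM, log2 fold change 1.01, edgeR adjusted p = 0.00669), the vesicular monoamine transporter. The ventral-enriched ones were Eipr1, Resp18 and Hid1, with log2 fold changes of -0.67, -0.64 and -0.61 (edgeR adjusted p = 0.0207, 0.0201 and 0.0118), which are genes known for vesicle formation or cargo sorting. Medians of the log2 fold change in these 4 lists were -0.29, 0.023, 0.12 and -0.15, in the order given.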

How the data were processed

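The deposited values are read-pair counts per Ensembl gene, made by the authors for each library without normalization. RNA was amplified with the Ovation system and sequenced as 50 bp paired ends. The submitters' processing notes name STAR 2.5.2b, HTSeq 0.7.2 and GRCm38. The annotation release and the strand setting are not given in the sources used here. Group and replicate number of each library follow the sample labels. Symbols, coordinates, GC content and exonic length came from GENCODE M21 on GRCm38, which named 54809 of 54838 genes.

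The comparison used edgeR 4.0.16 under R 4.3.3 (TMM factors, CPM above 1 in at least 2 libraries, quasi-likelihood test, Benjamini-Hochberg adjustment over 16806 genes). CPM in the text are the counts scaled to the TMM-adjusted library size. Standard errors (SE) were obtained as the fold change on the log2 scale over the root of the F statistic. The test was tried on simulated data. DESeq2 1.42.0, other scalings and filters, a GC and length correction (mgcv 1.9.3), a replicate block and the removal of each library were alternatives. Counts of 2 libraries of the same group differed with a chi-square per degree of freedom of 4.36 to 45.1 over 20 pairs. No such pair therefore differed by sampling noise of the counts alone. Members with at least 10 CPM in either group, or called, are given for every library. Of the other lists, up to 3 called genes per direction are named. Members and lists were chosen with earlier results of these data known. Protein sequences were not used here. The list of oligodendrocyte markers is not reported here.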

Additional observations from a re-analysis of the deposited data

Results flagged for a closer look

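In 13 of the 92 groups of 5 libraries (46 members in dorsal and in ventral libraries), 1 library stood apart from the other 4. Its gap to the nearest neighbour was above the 95% critical value of Dixon's ratio. Independent, normally distributed values would give about 4.6 such groups. CPM of genes with few counts, such as Tac2 and Tacr1, need not follow that distribution. The rate over all tested genes was not computed, so 13 is not read as an excess. Values below are the library that stood apart against its nearest neighbour in the same group. Library 2 was set apart on the high side for Tac2 in dorsal (2.08 CPM against 0.470 CPM) and ventral libraries (1.58 CPM against 0.444 CPM) and for Tacr1 in dorsal (2.66 CPM against 0.847 CPM) and ventral libraries (2.20 CPM against 0.614 CPM). Dorsal library 2 also stood out for Oxtr (18.6 CPM against 5.83 CPM), and ventral library 2 for Sstr1 (2.73 CPM against 1.52 CPM). Ventral library 3 was low for Npy (74.6 CPM against 111 CPM) and high for Npy2r (38.6 CPM against 22.96 CPM) and Hcrtr2 (10.9 CPM against 7.21 CPM). Ventral library 1 was high for Chgb (538 CPM against 423 CPM) and Pam (127 CPM against 105 CPM). Dorsal library 1 was high for Sstr2 (4.89 CPM against 2.64 CPM), and dorsal library 3 for Cckbr (4.70 CPM against 2.67 CPM). Of these genes only Hcrtr2 was called among the members, and it met both thresholds without ventral library 3 (log2 fold change -0.69, edgeR adjusted p = 0.0494).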

How the results depend on the processing

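Over 24 alternatives, 929 values of the tested members kept their direction and their side of the thresholds, 45 lost the call, 6 gained it and 45 changed sign, and the cause of these changes was not tested. The signs that changed belong to 10 members with small differences, 0 of them called. The fold change of Vgf was 0.022 with DESeq2 size factors, 0.033 with upper-quartile factors, 0.0083 with total counts, 0.017 with a stricter filter, 0.013 with the DESeq2 test, 0.022 with protein-coding genes alone, 0.0014 without mitochondrial genes, 0.27 with the GC and length correction and 0.31 with that and the replicate block. Oprm1 turned to -0.0031 without a filter, -0.026 with the DESeq2 test, -0.049 on the log2 ratio of mean CPM plus 1, -0.12 with the replicate block, -0.0040 with the block and the GC and length correction, and -0.053 with the dispersions of edgeR 3. Ntsr2 was -0.027 with the replicate block. With the GC and length correction, alone and with the block, Scg3 was -0.029 and -0.030 and Pam -0.029 and -0.027, and Oxtr was 0.046 with the correction alone. Leaving out 1 library at a time gave log2 fold changes from -0.11 to 0.14 for Vgf, -0.52 to 0.19 for Oprm1, -0.25 to 0.18 for Ntsr2, -0.056 to 0.10 for Scg3, -0.033 to 0.086 for Pam, -0.86 to 0.12 for Oxtr, -0.32 to 0.18 for Pcsk1, -0.28 to 0.37 for Sstr4, -0.12 to 0.012 for Scg5 and -0.90 to 0.10 for Pcsk1n. Leaving out 1 library also gave 2 to 4 dorsal-enriched and 3 to 8 ventral-enriched members (4 and 7 with all libraries), and 2113 to 2727 dorsal-enriched and 1245 to 1883 ventral-enriched genes (2679 and 1719 with all libraries). The GC and length correction left 4 ventral-enriched members. With protein-coding genes alone 13635 genes were tested, of which 1706 were dorsal-enriched and 1349 ventral-enriched. The median over all genes moved to 0.11 without an expression filter. The replicate numbers are shared by both groups in the labels, but libraries of the same number did not deviate together (correlations -0.018 to 0.041 over genes), and 1 of 5 dorsal libraries correlated best with its own number. With the replicate block 2710 genes were dorsal-enriched and 1733 ventral-enriched, and 3 and 6 members, with Penk (adjusted p = 0.0648) and Ntsr1 (adjusted p = 0.0589) no longer called in edgeR. The dispersions of edgeR 3, added after seeing the data, gave 2241 and 1454 genes and 4 and 5 members. The level of 3 counts, 0.146 to 0.269 CPM, limits statements on members near it (Gal in dorsal libraries, Avpr1a in ventral libraries).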
